A study of Arabidopsis thaliana with 16 samples.

Results

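The 4 chloroplast genes rpoA, rpoB, rpoC1 and rpoC2 encode the core of the plastid-encoded RNA polymerase, the bacterial-type enzyme that transcribes the chloroplast genome. They were chosen by gene symbol, as the chloroplast-encoded rpo genes with a probe set of exactly 1 gene, and all 4 had 1 such probe set among the 13356 genes named on the array. Their levels in methyl viologen in both lines were known when they were chosen, so every value of the methyl viologen groups is given here as a description with no test. Their loci are ArthCp055 (rpoA), ArthCp014 (rpoB), ArthCp013 (rpoC1) and ArthCp012 (rpoC2). Another 65 chloroplast-encoded genes with a probe set of their own served for comparison.

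RNA of whole Arabidopsis thaliana seedlings was hybridised to 16 ATH1 arrays (Affymetrix), with 8 groups of 2 arrays. The design crossed 2 lines, the wild type (WT) and a line overexpressing the rice glutaredoxin gene OsGRX8, with 4 incubations of 3 h at 14 days of age. The first was water and the second the auxin indole-3-acetic acid (IAA) at 100 µM. The third was NaCl at 200 mM and the last methyl viologen (MV) at 25 µM, a redox cycler that oxidises photosystem I in the light and generates superoxide in the chloroplast. Both lines grew on MS medium in a daily cycle of light and dark. Glutaredoxins are small enzymes that reduce disulfides with glutathione. The promoter that drives OsGRX8 and the number of independent transgenic lines are not stated in the labels, and the level of OsGRX8 RNA was not analysed here. The submitters call the 2 arrays of a group biological replicates, without saying whether they came from separate plates of seedlings.

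The polymerase has the subunit plan of the bacterial enzyme. rpoA encodes the alpha subunit, on which the enzyme assembles, rpoB the beta subunit, and rpoC1 and rpoC2 the beta-prime and beta-double-prime subunits, which are a single protein in most bacteria. The core needs nuclear-encoded sigma factors to find promoters and is surrounded by nuclear-encoded associated proteins. A phage-type polymerase, also encoded in the nucleus, reads the rpoB operon. The plastid polymerase is known for transcribing the photosynthesis genes of green chloroplasts.

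On the chloroplast map of the RefSeq assembly TAIR10.1, rpoC2, rpoC1 and rpoB follow each other between rps2 and the tRNA gene trnC. rpoA lies elsewhere, next to petD, at the end of a cluster of ribosomal protein genes. No amino acid or promoter sequence of these genes was used here.

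Values are log2 probe set signals as the authors deposited them, so a difference of 1 is a 2-fold difference, and levels of different probe sets cannot be set against each other. Array medians lay between 2.94 and 3.20 and replicate arrays correlated at 0.966 to 0.994. IAA replicate 2 stood apart in both lines: its 3′ actin control probe set exceeded the 5′ one by 6.10 in the WT and 4.43 in the overexpression line, against 1.13 to 2.57 on the other 14 arrays. Of the tissue markers, none of 6 green tissue genes had a probe set named here. The root gene PYK10 lay between 8.62 and 9.69 on all arrays, the root hair gene EXPA7 between 1.14 and 2.30, and the pollen and seed markers AMS and OLEO3 below 2. Chloroplast transcripts mostly lack the long poly(A) tails from which labelling for such arrays usually starts. How the RNA was primed here is not given in the sources used here. In bulk RNA of seedlings, fewer cells of a type, fewer plastids per cell and less RNA per plastid cannot be told apart.

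Seedlings overexpressing OsGRX8 had their lowest rpoA, rpoC1 and rpoC2 signals of the whole series after MV. Relative to the WT in MV, rpoC2 was 3.83-fold lower, rpoC1 2.59-fold lower and rpoA 2.07-fold lower, while rpoB gave too little signal to follow. The other chloroplast genes were lower as well, with a median log2 difference of -1.52 that lies inside the range of the rpo genes. In water, IAA and NaCl, 0 of the 4 genes passed the test in any comparison.

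The plot of rpo signals by array shows the 4 probe sets in every group.

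**Figure D1:**
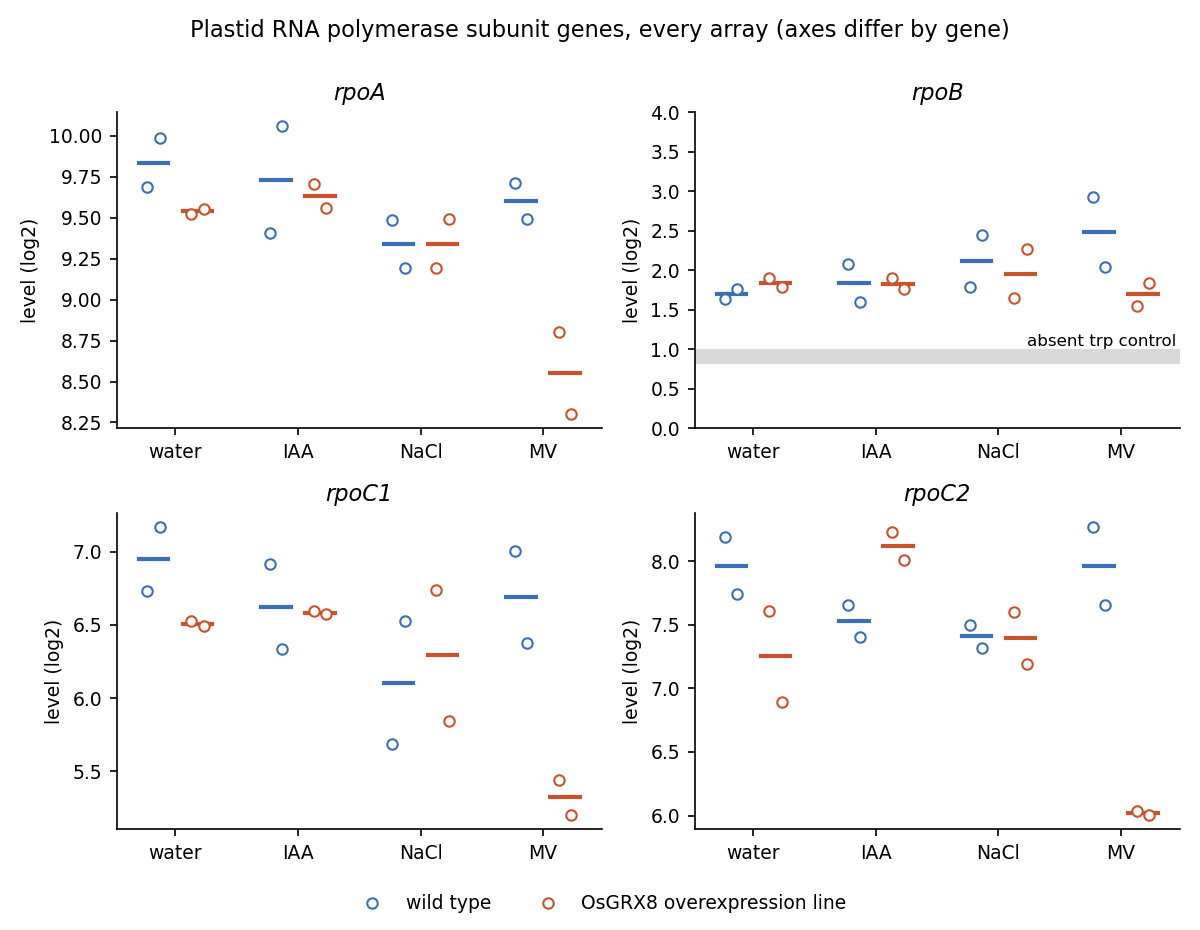
Signal of the rpoA, rpoB, rpoC1 and rpoC2 probe sets on each of the 16 arrays (log2, y axis, with a range of its own per gene) by incubation (x axis), WT in blue and overexpression line in orange, with circles for arrays, bars for the mean of 2 and a grey band for the absent control transcript. For rpoA, rpoC1 and rpoC2 both arrays of the overexpression line in MV lie below the other 14, while rpoB stays between 1.54 and 2.93 throughout.

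The alpha subunit gene rpoA read 9.69 and 9.99 in the 2 WT water arrays, 9.41 and 10.06 in IAA, 9.48 and 9.20 in NaCl, and 9.71 and 9.49 in MV. The overexpression line had 9.52 and 9.56 in water, 9.70 and 9.56 in IAA, 9.19 and 9.49 in NaCl, and 8.80 and 8.30 in MV. The last pair was below every other array, whose lowest value was 9.19. No step between neighbouring means of the other groups was wider than the spread between replicates (pooled SD 0.25).

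The beta-double-prime gene rpoC2 read 8.19 and 7.74 in the WT in water, 7.65 and 7.40 in IAA, 7.50 and 7.32 in NaCl, and 8.26 and 7.65 in MV. The overexpression line gave 7.61 and 6.89 in water, 8.23 and 8.01 in IAA, 7.60 and 7.19 in NaCl, and 6.04 and 6.01 in MV. Both MV arrays of that line again lay below the other 14, of which the lowest, a water array of the same line, read 6.89. rpoC2 also varied more than rpoA among the remaining groups: its highest mean, 8.12, was that of the overexpression line in IAA.

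The beta-prime gene rpoC1 read 6.73 and 7.17 in the WT in water, 6.92 and 6.33 in IAA, 5.68 and 6.53 in NaCl, and 7.01 and 6.38 in MV. In the overexpression line it read 6.53 and 6.49 in water, 6.59 and 6.58 in IAA, 6.74 and 5.85 in NaCl, and 5.44 and 5.20 in MV. The MV pair was lowest here too, but a WT array in NaCl came close to it, and rpoC1 had the widest spread between replicates of the 4 genes (pooled SD 0.40, against 0.30 for rpoC2).

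The beta subunit gene rpoB read 1.63 and 1.77 in the WT in water, 2.07 and 1.59 in IAA, 1.78 and 2.44 in NaCl, and 2.93 and 2.04 in MV. The overexpression line had 1.90 and 1.79 in water, 1.90 and 1.76 in IAA, 1.65 and 2.26 in NaCl, and 1.54 and 1.84 in MV. These signals are not far above those of a bacterial control transcript that is absent from plant RNA, which read 0.82 to 0.99. The 2 MV arrays of the overexpression line were not both the lowest, and most groups overlapped. What follows for rpoB therefore describes a probe set near background, although the neighbouring rpoC1 and rpoC2 gave clear signals.

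Ordered by group mean, the overexpression line in MV was the lowest of 8 groups for all 4 genes. The step up to the next group was 0.79 for rpoA, 0.79 for rpoC1 and 1.23 for rpoC2, each wider than that gene's spread between replicates, and 0.01 for rpoB. The highest group was the WT in water for rpoA and rpoC1, the overexpression line in IAA for rpoC2 and the WT in MV for rpoB. Between other neighbours in these orders, only the step of 0.43 from the WT in IAA to the WT in MV for rpoC2 and that of 0.38 from the WT in NaCl to the WT in MV for rpoB exceeded the replicate spread.

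The comparison of the lines in MV asks how the glutaredoxin line differs from the WT under an oxidant made in the chloroplast. In MV the log2 difference between the overexpression line and the WT was -1.94 ± 0.27 for rpoC2 (SE from limma, n = 2 arrays per group), -1.37 ± 0.34 for rpoC1, -1.05 ± 0.23 for rpoA and -0.79 ± 0.30 for rpoB. For all 4 genes both arrays of the overexpression line lay below both WT arrays, as was the case for 15.9% of all 22746 probe sets. The rule for choosing the genes used these values, so nothing is read from that count. The median over the 4 genes was -1.21, against 0.02 over all probe sets.

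Against water in its own line, MV went with lower signals of rpoC2 (-1.23 ± 0.27), rpoC1 (-1.19 ± 0.34) and rpoA (-0.99 ± 0.23) in the overexpression line, and the arrays of the 2 groups did not overlap for these 3 genes, against 25.2% of all probe sets that were lower in this way. rpoB differed by -0.15 ± 0.30. In the WT the same comparison gave -0.01 ± 0.27 for rpoC2, -0.25 ± 0.34 for rpoC1 and -0.23 ± 0.23 for rpoA, each about the size of its SE or smaller. rpoB alone was higher in the WT in MV, by 0.79 ± 0.30, resting mostly on replicate 1 at 2.93.

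The difference between the lines in their MV response was -1.22 ± 0.38 for rpoC2, -0.94 ± 0.43 for rpoB, -0.93 ± 0.48 for rpoC1 and -0.75 ± 0.33 for rpoA. For rpoC2 the line difference in MV was larger than this, because the overexpression line was already 0.71 lower in water. The rpoB value, unlike the others, came mostly from the WT. The other 65 chloroplast genes had medians of -0.97 for MV against water in the overexpression line, -0.20 in the WT and -0.95 for the difference between these responses.

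**Figure D2:**
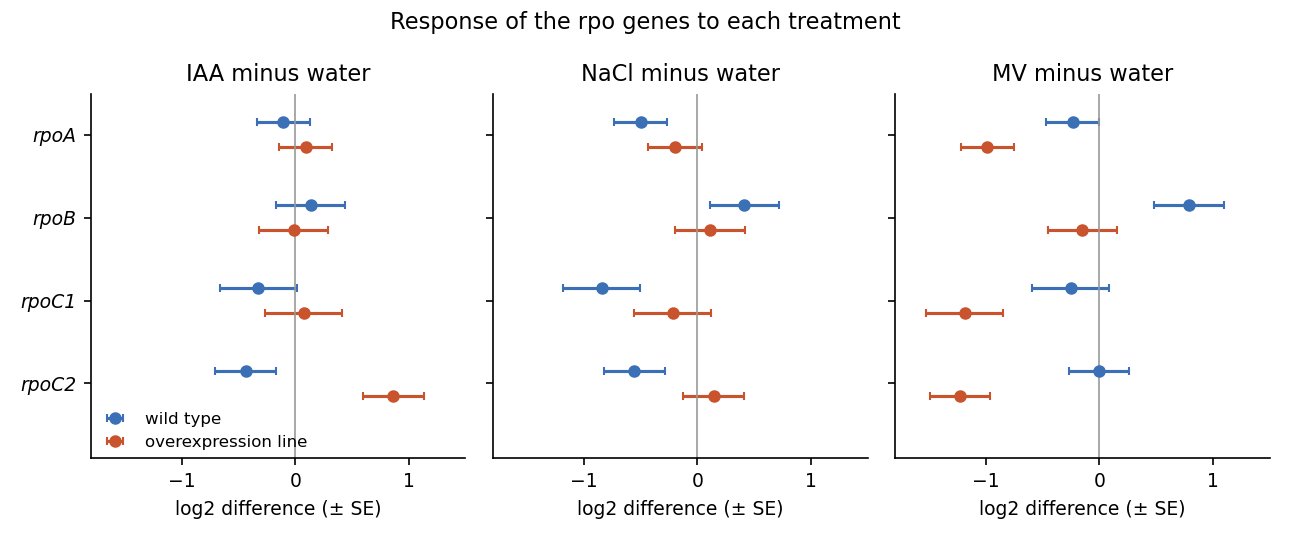
Log2 difference from water (x axis) of each rpo gene (rows) in IAA, NaCl and MV (panels) for the WT in blue and the overexpression line in orange, with bars for the standard error of the fit. The MV values of the overexpression line lie between -1.23 and -0.99 for rpoA, rpoC1 and rpoC2, and those of the WT between -0.25 and -0.01.

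The other 65 chloroplast genes were also lower in the overexpression line than in the WT in MV, in 65 of 65 cases without overlap of the arrays. Their differences ranged from -3.27 for atpA, the alpha subunit of the ATP synthase, to -0.31 for atpE, another of its subunits. Of the 65, 14 had a lower difference than rpoC2, 42 a lower one than rpoC1, 52 a lower one than rpoA and 56 a lower one than rpoB. rpoC2 thus stood in the lower part of the chloroplast genes, and the other 3 rpo genes among those with the smaller differences. These places were not adjusted for signal strength: rpoA had a mean of 9.45, and rpoB was near background. The brightest chloroplast probe sets were atpE (mean 11.25), rps4 (11.02), atpB (10.73), psaB (10.39) and psbM (10.27). Their differences were -0.31, -0.60, -0.56, -1.03 and -1.35.

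Both MV arrays of the overexpression line were the lowest of all 16 arrays for 3 of the 4 rpo genes, 30 of the 65 other chloroplast genes and 1.36% of all probe sets. Signal strength went with that count: it held for 29 of the 52 other chloroplast genes with a mean of at least 4, and for 1 of the 13 below 4. The median line difference in MV was -1.48 in the brighter class and -1.87 in the dimmer one, but the responses behind it differed. For MV against water, the brighter genes had medians of -1.09 in the overexpression line and -0.33 in the WT. Those below 4 had medians of 0.19 and 1.27.

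Per array, the median signal of the 65 other chloroplast genes was 5.28 and 5.49 in the overexpression line in MV and 7.16 and 6.92 in the WT in MV. The lowest of the remaining arrays were IAA replicate 2 of the WT at 5.72 and of the overexpression line at 5.99, and the highest read 7.69. On the WT IAA array with the low chloroplast median rpoA read 10.06, its highest value of all. Beside the low chloroplast signal in MV, the 3′ excess of the actin control was 1.61 and 1.56 in the overexpression line and 1.73 on both arrays of the WT. That of the thr control, a bacterial transcript, was 2.42 and 2.62 against 1.80 and 2.22. The 25S rRNA control read 8.71 and 8.82 against 8.50 and 8.16, in a range of 2.17 to 9.87 over all arrays. Of 6 root markers 2 were named here. EXPA7, of root hairs, read 2.25 and 2.30 in the overexpression line in MV, its 2 highest values of all 16 arrays, against 1.63 and 1.29 in the WT in MV. All these EXPA7 signals are near background, and the overexpression line already read 2.04 and 2.20 in water. PYK10 read 9.47 and 8.95 against 9.55 and 8.73, which overlap. The part of RNA quality or of root RNA in the rpo values was not tested.

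With each array centred on the median of those 65 genes, the line difference in MV became -0.28 for rpoC2, 0.28 for rpoC1, 0.60 for rpoA and 0.86 for rpoB. The fit gave each gene the same SE of 0.66, a value pooled over all probe sets under this centring. It does not measure the spread of an rpo gene, so these values are not judged against it. This centring makes the comparison one within the chloroplast and says nothing of the absolute level.

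**Figure D3:**
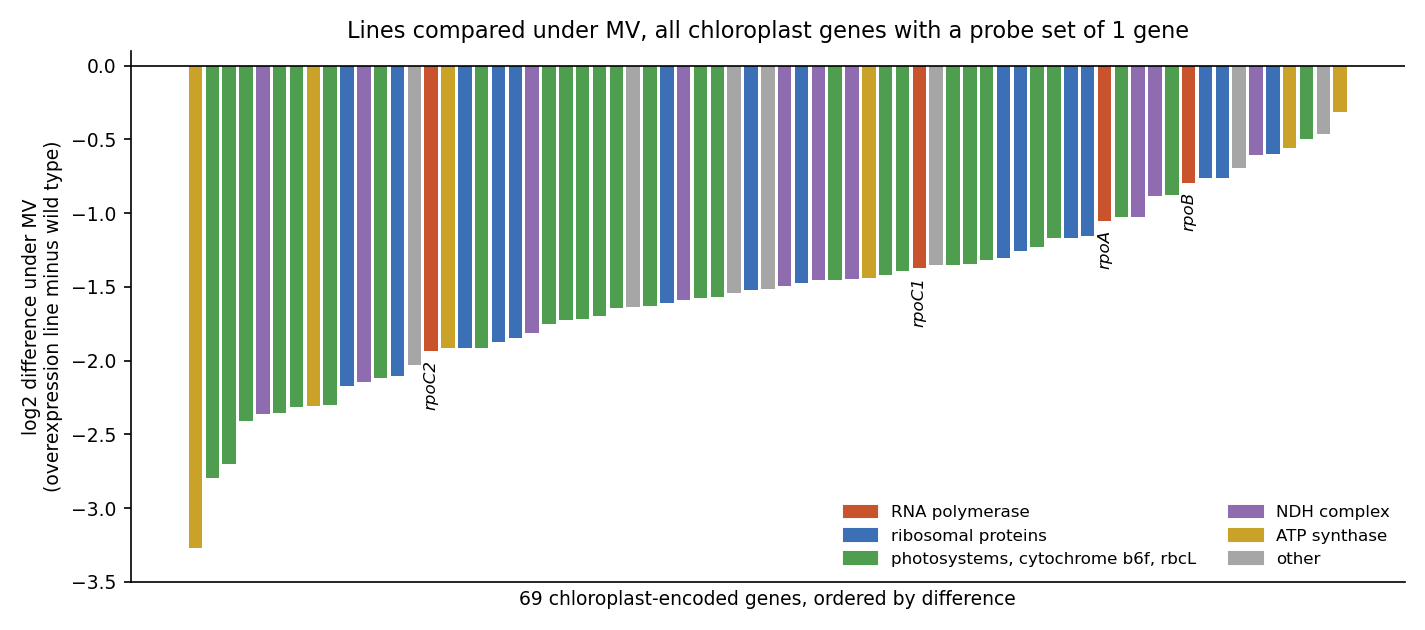
Log2 difference between the overexpression line and the WT in MV (overexpression minus WT) for each of the 69 chloroplast-encoded genes with a probe set of its own, as bars in order of size and coloured by gene class. All bars are below 0, from -3.27 for atpA to -0.31 for atpE, and the rpo genes lie between -1.94 and -0.79.

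By function, the median line difference in MV was -1.63 over 27 photosynthesis genes, -1.68 over 6 ATP synthase genes, -1.47 over 10 genes of the NDH complex (which passes electrons around photosystem I) and -1.47 over 15 ribosomal protein genes. The rpo median of -1.21 was the smallest of these in size, on 4 genes of which 1 was near background. accD, a subunit of acetyl-CoA carboxylase that is read mainly by the nuclear-encoded polymerase, differed by -1.54 ± 0.74. Genes of the photosynthetic machinery and those outside it were both lower. As a second organelle, 15 probe sets of 8 mitochondrial nad genes, most of them near background, had a median of -0.32.

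The map neighbours of the rpo genes were taken as well. On the side of rpoC2 away from rpoC1 on the map lie rps2, a ribosomal protein gene, and the ATP synthase genes atpI, atpH, atpF and atpA. Their line differences in MV were -1.17 ± 0.42 for rps2, -1.92 for atpI, -1.44 for atpH, -2.31 for atpF and -3.27 ± 0.99 for atpA, around a median of -1.92. The difference of rpoC2 (-1.94) was close to that median but further below 0 than that of rps2, which lies next to it. That of rpoC1 (-1.37) was nearer to the value of rps2. The neighbours spread widely, so nothing is read from these positions.

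In the ribosomal protein cluster that ends in rpoA, 6 of 10 neighbours had a probe set of their own. Their line differences in MV were -1.15 for rps19, -0.77 for rpl22, -0.76 for rps3, -1.47 for rpl16, -1.30 for rpl14 and -1.52 for rpl36. The value of -1.05 for rpoA fell inside this range, near the median of -1.23.

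**Figure D4:**
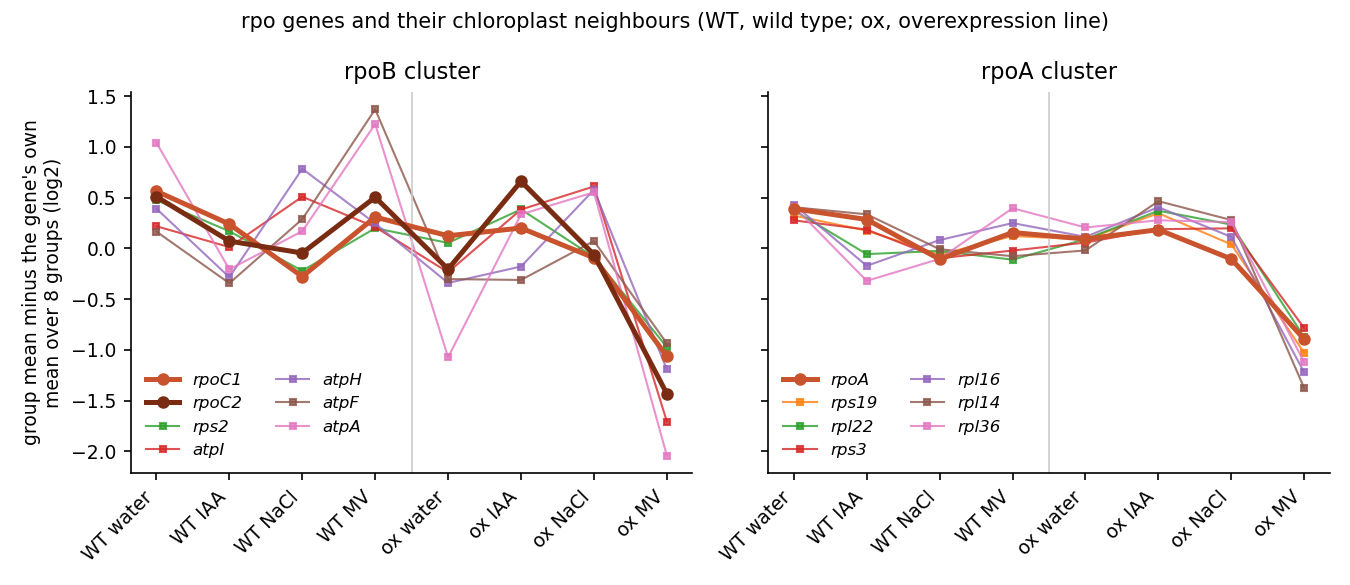
Group mean of each gene minus that gene's own mean over the 8 groups (log2, y axis) by group (x axis; ox, overexpression line), for rpoC1 and rpoC2 with their map neighbours (left) and rpoA with its own (right), 1 line per gene. All lines have their lowest point in the overexpression line in MV, and rpoB, near background, is left out.

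Of the nuclear partners, 0 of 6 sigma factors and 0 of 12 associated proteins had a probe set named here. Of 3 phage-type polymerases 1 was named, RPOTmp, which serves mitochondria and plastids. RPOTmp read between 1.47 and 2.46 on all arrays, near background, and passed the test in none of the 10 tested comparisons. Its difference between the lines in MV was 0.36 ± 0.23.

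Salt is a stress under which seedlings of both lines changed widely: 14.1% of all probe sets passed the test in the WT and 15.7% in the overexpression line (limma, Benjamini-Hochberg adjusted p of 0.05). Of the rpo genes, 0 of 4 passed in either line. At an unadjusted p of 0.05, 1 of 4 (rpoC1) passed in the WT, against 24.9% of all probe sets, and 0 of 4 in the overexpression line, against 26.6%. In the WT, rpoC1 gave -0.84 ± 0.34 in NaCl against water (95% confidence interval -1.57 to -0.11, limma adjusted p = 0.134), rpoC2 -0.56 ± 0.27 (adjusted p = 0.222), rpoA -0.50 ± 0.23 (adjusted p = 0.211) and rpoB 0.41 ± 0.30 (adjusted p = 0.491). For rpoA, rpoC1 and rpoC2 both NaCl arrays were below both water arrays, which held for 30.8% of all probe sets.

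The rpoC1 value in WT salt depended on the arrays, being -1.26 without NaCl replicate 2 and -0.42 without NaCl replicate 1. With weights for array quality it passed the test (adjusted p = 0.045). In the overexpression line the 4 differences in NaCl lay between -0.22 and 0.14, with adjusted p of 0.684 or more (limma). The difference between the lines in the salt response was 0.70 ± 0.38 for rpoC2 (adjusted p = 1) and 0.62 ± 0.48 for rpoC1, and 0 of 4 genes passed that test, as did 0 of all probe sets. At an unadjusted p of 0.05, 0 of 4 rpo genes and 2.16% of all probe sets passed it. The other 65 chloroplast genes had a median of -0.37 in the WT in NaCl and 0.06 in the overexpression line. For the difference between these responses their median was 0.46, with 58 of 65 above 0.

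After IAA few probe sets passed the test, 0.207% in the WT and 0.215% in the overexpression line, and 0 of 4 rpo genes did in either. At an unadjusted p of 0.05, 0 of 4 passed in the WT, against 12.1% of all probe sets, and 1 of 4 (rpoC2) in the overexpression line, against 4.26%. In the WT the differences from water were -0.44 ± 0.27 for rpoC2 (both IAA arrays below both water arrays, as for 15.6% of all probe sets), -0.32 ± 0.34 for rpoC1, -0.11 ± 0.23 for rpoA and 0.14 ± 0.30 for rpoB. In the overexpression line rpoC2 was 0.87 ± 0.27 above water (unadjusted p = 0.00653, adjusted p = 0.691, limma), and rpoA, rpoC1 and rpoB differed there by 0.09, 0.08 and -0.01. For 3 of 4 genes (rpoA, rpoC1 and rpoC2) both IAA arrays were above both water arrays, as for 18.4% of all probe sets, by a narrow margin for rpoA and rpoC1.

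rpoC2 therefore lay below water after IAA in both WT arrays and above it in both arrays of the overexpression line. The difference between the lines in the IAA response was 1.303 ± 0.38 (95% confidence interval 0.49 to 2.12), with an unadjusted p of 0.0044 and an adjusted p of 0.9998 (limma), so it did not pass. At an unadjusted p of 0.05, rpoC2 was the 1 of 4 rpo genes that passed there, against 2.84% of all probe sets. Over the alternatives its adjusted p ran from 0.117 to 1. The other 65 chloroplast genes had a median of 0.50 in that comparison and 62 of them lay below rpoC2. Without IAA replicate 2 of both lines, whose actin control stood apart, the value was 1.29. With each array centred on the other chloroplast genes it was 0.58, with an SE of 0.93 that was pooled over all probe sets. The part of RNA quality in it was not tested further.

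Between the lines without MV, 0 of 4 rpo genes and 0% of all probe sets passed the test in water, IAA, NaCl or their mean. In water the overexpression line read lower for rpoC2 by -0.71 ± 0.27 (unadjusted p = 0.0192, adjusted p = 1, limma), with values of -0.44 ± 0.34 for rpoC1, -0.30 ± 0.23 for rpoA and 0.15 ± 0.30 for rpoB. For rpoA, rpoC1 and rpoC2 both arrays of the overexpression line were below both WT arrays, against 15.2% of all probe sets. The same held for 40 of the 65 other chloroplast genes. All 65 had a lower mean in the overexpression line in water, with a median difference of -0.54. At an unadjusted p of 0.05, 1 of 4 rpo genes (rpoC2) and 1.12% of all probe sets passed in water. In IAA 1 of 4 (rpoC2) did, against 7.32%, in NaCl 0 of 4, against 4.48%, and over the mean 0 of 4, against 5.02%.

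In IAA the line difference of rpoC2 had the other sign, 0.59 ± 0.27 (adjusted p = 0.682, limma), and in NaCl it was -0.02 ± 0.27. Over the mean of water, IAA and NaCl the line difference was -0.05 ± 0.15 for rpoC2 (95% confidence interval -0.38 to 0.29), -0.10 ± 0.20 for rpoC1 (-0.52 to 0.33), -0.13 ± 0.14 for rpoA (-0.42 to 0.16) and 0.00 ± 0.18 for rpoB. These intervals are for the mean over the incubations without MV and bound no single incubation. For rpoC2 that mean joins values of opposite sign, -0.71 in water and 0.59 in IAA. The intervals leave out a mean difference of the size seen in MV for rpoA, rpoC1 and rpoC2, but the choice of genes used those MV values. The intervals do not show that the lines are alike.

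The correlations among the rpo genes over the 16 arrays include the MV arrays that the choice of genes used, and are a description only. rpoC1 and rpoC2, which lie side by side, had a Pearson r of 0.79 and a Spearman rho of 0.79, and over the 14 arrays without the overexpression line in MV these were 0.48 and 0.68. rpoA and rpoC2 had an r of 0.76, and 0.27 over the 14 arrays. rpoA and rpoC1 had an r of 0.69, and 0.21 over the 14. With rpoB the r of the others was between 0.07 and 0.29. All these points share the arrays and their normalization. Much of the correlation of rpoA with rpoC1 and rpoC2 thus rests on the 2 arrays of the overexpression line in MV.

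The genes whose pattern over the 8 group means was most like the mean pattern of the rpo genes were ranked by Pearson r among 4601 candidates with a mean of at least 4, of which 52 were chloroplast-encoded. The first was psaI, a small subunit of photosystem I, at 0.963, followed by rps2 at 0.960, the nuclear gene AT4G17620 at 0.960, rps19 at 0.956 and petA, which encodes cytochrome f, at 0.950. AT4G17420, matK (an intron maturase), rpl32, rpl16 and psbZ, of photosystem II, completed the first 10, down to 0.907. Of the first 10, 8 were chloroplast-encoded. The mean pattern gave rpoB, near background, the same weight as each other rpo gene. Its highest group was the WT in MV (0.38 above the mean over groups), ahead of the WT in water (0.31). rpoA and rpoC1 were instead highest in the WT in water. A ranking without rpoB was not run. The ranking includes the overexpression line in MV, the lowest group of all 4 rpo genes, whose values the choice of genes used.

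Without that group, the r of these 10 genes lay between 0.57 and 0.92, and that of the next 20 between -0.14 and 0.77. The 2 nuclear genes followed the pattern at a smaller scale, with line differences in MV of -0.37 for AT4G17620 and -0.43 for AT4G17420. Of the map neighbours, rps2 had an r of 0.83 without that group, rps19 0.71 and rpl16 0.57.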

How the data were processed

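The authors deposited log2 probe set values, with 1 column for each array. They are RMA summaries per the submitters' processing notes (a method that subtracts background, equalises the arrays' distributions and summarises probes by median polish). Its version and the genome build were not given in the sources used here. Of 22810 probe sets, 64 Affymetrix controls were left out. Names came from the platform annotation: 13513 probe sets had 1 gene, 503 several and 8730 none here. The 8 chloroplast probe sets of several genes were not named.

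From these values, 1 mean per group was fitted to each probe set over all 16 arrays with limma 3.58.1 in R 4.3.3 (lmFit, contrasts.fit and eBayes without trend, 8 residual and 4.52 prior degrees of freedom). Two-sided p-values were adjusted by Benjamini-Hochberg over 22746 probe sets per comparison, with a threshold of 0.05. A 95% confidence interval for 2 groups had a median half-width of 0.45. The fit was tested on simulated data. The genes, lists and tests were chosen with earlier results of these data known. Named genes are the 4 rpo genes, the measured members of their partner, neighbour and chloroplast lists, and the 10 most alike in pattern. Pairing by replicate number was checked between groups. Deviations from the group means correlated at -0.11 to 0.36 in 28 pairs of groups, over 0.1 in 9. The main fit did not pair the arrays, although IAA replicate 2 stood apart in both lines. With a replicate block, the rpoC2 difference between the lines in the IAA response stayed at 1.303 with an SE of 0.25 (limma unadjusted p = 0.000245, adjusted p = 0.9997). Alternatives were other scalings, filters, weights, array subsets, a replicate block and each array left out in turn.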

Additional observations from a re-analysis of the deposited data

Results flagged for a closer look

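The difference between the lines in the IAA response of rpoC2, 1.303 on the log2 scale (overexpression line minus WT), drew attention because both WT arrays in IAA lay below both WT arrays in water, while both arrays of the overexpression line in IAA lay above both of its arrays in water. The difference itself was tested with limma and did not pass after adjustment (adjusted p = 0.9998). The same difference was 0.20 for rpoA, 0.40 for rpoC1 and -0.15 for rpoB. For rpoA and rpoC1 both arrays of the overexpression line in IAA were also above both of its water arrays, by a narrow margin. Their WT arrays in IAA and water overlapped. Of all probe sets, 15.6% were lower without overlap after IAA in the WT and 18.4% higher in the overexpression line. The share that did both was not counted. The other 65 chloroplast genes had median differences from water of -0.43 after IAA in the WT, near the rpoC2 value there, and 0.09 in the overexpression line. No group was large enough for a test of single outlying arrays.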

How the results depend on the processing

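In the 10 tested comparisons, 0 of 4 rpo genes passed under every alternative run, with 1 exception: in the WT in NaCl, array weights gave 1 gene (rpoC1, adjusted p = 0.045), where 0 passed otherwise. Leaving out each array in turn gave 0 in all of them, from 0 to 0. With the replicate number as a block, the count was 0 in each, and the block moved no call. In MV, centring each array on the other chloroplast genes turned the sign of the median over the 4 genes: to 0.44 from -1.21 between the lines, to 0.32 from -1.09 against water in the overexpression line, to 0.30 from -0.12 in the WT, and to 0.0495 from -0.94 for the difference between the responses. That centring by construction removes what the chloroplast genes share. Leaving out 1 array gave medians of -1.46 to -0.999, -1.24 to -0.90, -0.33 to 0.18 and -1.32 to -0.63 in the same order. The third changed sign without WT MV replicate 2 (0.18), and the cause was not tested. Of 1069 values of single rpo genes that passed no test either way, 61 changed sign, 15 of them with the chloroplast centring. Dropping probe sets with a mean below 4 removed rpoB. Averaging several probe sets per gene was not run, since each rpo gene had 1. Leaving out IAA replicate 2 of both lines was added after seeing the data. The 2 arrays per group limit the precision: differences of -0.84 (rpoC1, WT in NaCl) and 0.87 (rpoC2, overexpression line in IAA) did not pass after adjustment, and rpoB was limited by its signal near background.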

Other observations

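Of the 65 other chloroplast genes, 3 were higher and 1 lower past the test in NaCl in the WT. In the overexpression line 5 were higher and 0 lower. Of all probe sets 14.1% and 15.7% passed, and of the rpo genes 0 of 4 in either line. rps14, a ribosomal protein gene, read 2.14 and 3.33 in water and 5.55 and 6.66 in NaCl in the WT, and 2.58 and 1.58 against 5.84 and 5.03 in the overexpression line. It rose by 3.37 ± 0.60 (SE, n = 2, limma adjusted p = 0.00214) and 3.35 ± 0.60 (adjusted p = 0.00197), with no overlap between NaCl and water in either line. Its water signals were near background, so the size of the rise is uncertain. psaA, which encodes a core protein of photosystem I, read 3.70 and 3.93 in water and 5.47 and 6.66 in NaCl in the WT. The overexpression line had 3.72 and 3.30 in water and 6.08 and 5.67 in NaCl. It rose by 2.25 ± 0.48 (adjusted p = 0.00679) and 2.37 ± 0.48 (adjusted p = 0.00439). psaB, the other core protein gene of photosystem I, which lies with psaA and rps14 in a single operon, differed by -0.10 and -0.11 in the same comparisons.

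petD, a subunit of the cytochrome b6f complex and the map neighbour of rpoA, rose by 1.36 ± 0.36 in the WT (limma adjusted p = 0.0233) and 1.83 ± 0.36 in the overexpression line (adjusted p = 0.00392), from a signal near background in water, while rpoA differed by -0.50 and -0.20. In the overexpression line petN, also of that complex, rose by 1.48 ± 0.42 (adjusted p = 0.03) and rbcL, the large subunit of Rubisco, by 1.08 ± 0.33 (adjusted p = 0.0447). In the WT ccsA, which serves cytochrome c assembly, fell by 0.93 ± 0.24 (adjusted p = 0.0186). rps14 passed the test under all alternatives run in both lines, and psaA in the overexpression line. In the WT psaA did not pass without water replicate 1 or without NaCl replicate 2. petD did not pass with chloroplast centring in either line, nor in the WT without the same 2 arrays as psaA. ccsA and petN each failed under 4 of 27 alternatives and rbcL under 12 of 27.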
